A study of Homo sapiens with 23 samples.

Results

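Extracellular matrix and matrix-remodelling genes, 49 in all, were followed through RNA-seq of HCT116, a human colorectal cancer cell line. The genes were chosen by name, not by a measured value, but with earlier results of these data known. All 49 were found among the 28105 genes of the deposited tables. Gene expression was measured by sequencing poly(A)-selected RNA in 8 libraries that form 4 groups of 2. Cells labelled MLL4 KO were set against WT cells, and cells labelled BAP1 KO were set against cells labelled control, whose genotype label is also WT. KMT2D encodes MLL4, which methylates histone H3 at enhancers, and BAP1 removes ubiquitin from histone H2A in the nucleus. Only the BAP1 KO and control tables carry osTir1 in their names, a plant receptor with which tagged proteins can be destroyed, so the lines of the 2 experiments may differ. A doxycycline-inducible tagged BAP1 is described in the labels for Western blot and ChIP-seq of WT and MLL4 KO cells. The sources used here do not say how either knockout was made, or whether replicates were separate clones or cultures. The p-values therefore measure only the spread between these libraries, which may be technical. A further 15 samples, from ChIP-seq, were left aside.

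The extracellular matrix is the network of secreted proteins around cells. Epithelial cells rest on a basement membrane, a sheet of laminin and type IV collagen networks joined by nidogens, agrin and perlecan. Fibronectin and fibrillar collagens form the looser interstitial matrix, lysyl oxidases cross-link it, and matrix metalloproteinases cut it under the control of tissue inhibitors (TIMPs). Latent TGF-beta binding proteins (LTBPs) and fibrillins hold TGF-beta in the matrix in an inactive form. In the colon most interstitial matrix is made by fibroblasts, while epithelial cells contribute laminins and other parts of the basement membrane.

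Counts summed over genes were 24.8 to 42.2 M per library. Replicates correlated across genes at r = 0.983 in MLL4 KO, 0.976 in WT, 0.985 in BAP1 KO and 0.992 in control on log2 CPM, which are counts per library size with TMM factors, where genes are not independent replicates. Their median absolute log2 difference was 0.22 in MLL4 KO, 0.287 in WT, 0.188 in BAP1 KO and 0.095 in control. The edgeR fit of all 8 libraries shares its spread over these unequal groups. Its SE for MLL4 KO against WT thus also rests on the closer control replicates, and that for BAP1 KO on the wider WT replicates. The mRNA of the targeted gene was not lower in either knockout: KMT2D had a log2 fold change of 0.01 ± 0.18 in MLL4 KO against WT (SE, edgeR adjusted p = 0.97) and BAP1 by 0.07 ± 0.13 in BAP1 KO against control (adjusted p = 0.746). These mRNA levels therefore do not check the knockout labels. Of 12 colon epithelial markers 9 or 10 reached 1 CPM in each group, while CDX1 had no read in any library. The sum of the 12 was 5423 to 5500 CPM in MLL4 KO, 3756 to 3887 in WT, 3062 to 3629 in BAP1 KO and 5942 to 5954 in control. KRT8, KRT18 and KRT19 made up most of that sum, and single markers moved differently. In MLL4 KO, KRT8 had 3015 and 2893 CPM, against 1783 and 1758 in WT, but EPCAM had 109 and 119, against 214 and 282. In BAP1 KO, CDH1 had 28.1 and 70.2 CPM, against 233 and 239 in control, but KRT20 had 6.64 and 7.59, against 0.862 and 0.513. Of 10 fibroblast markers only ACTA2 reached 1 CPM, and DCN, LUM and POSTN had no read in any library. The summed fibroblast markers were 6.87 to 9.79 CPM in MLL4 KO, 2.06 to 4.81 in WT, 2.81 to 3.38 in BAP1 KO and 6.85 to 7.21 in control. Of 7 endothelial markers 1 (VWF) reached 1 CPM in MLL4 KO and none in the other groups, and of 7 leukocyte markers CD68 alone did. The part of these marker shifts in the results was not tested.

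The matrix genes expressed by these cells were mostly inhibitors, LTBPs, laminins and type VI and XVIII collagens. Together the 49 genes took 0.358% and 0.401% of all counts in MLL4 KO, 0.31% and 0.22% in WT, 0.478% and 0.428% in BAP1 KO and 0.382% and 0.395% in control. Levels between genes were compared as deposited RPKM (reads scaled to transcript length and library depth). TIMP1, a metalloproteinase inhibitor, had the highest mean over the 8 libraries at 116.5 RPKM. LTBP3 followed at 58.4, LTBP4 at 49.4, COL6A2 at 43.5, LAMA5 at 42.3, COL6A1 at 39.5, COL18A1 at 34.0, TIMP2 at 31.1, LAMB2 at 25.2 and AGRN at 21.9 RPKM. These 10 genes held 67.1% to 82.9% of the summed RPKM of the 49 in each library. Some neighbours in this order were not separated beyond their spread: COL6A2, LAMA5 and COL6A1 were at 23.6 ± 7.32, 27.8 ± 10.4 and 23.9 ± 9.76 RPKM in WT (SD, n = 2).

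**Figure D1:**
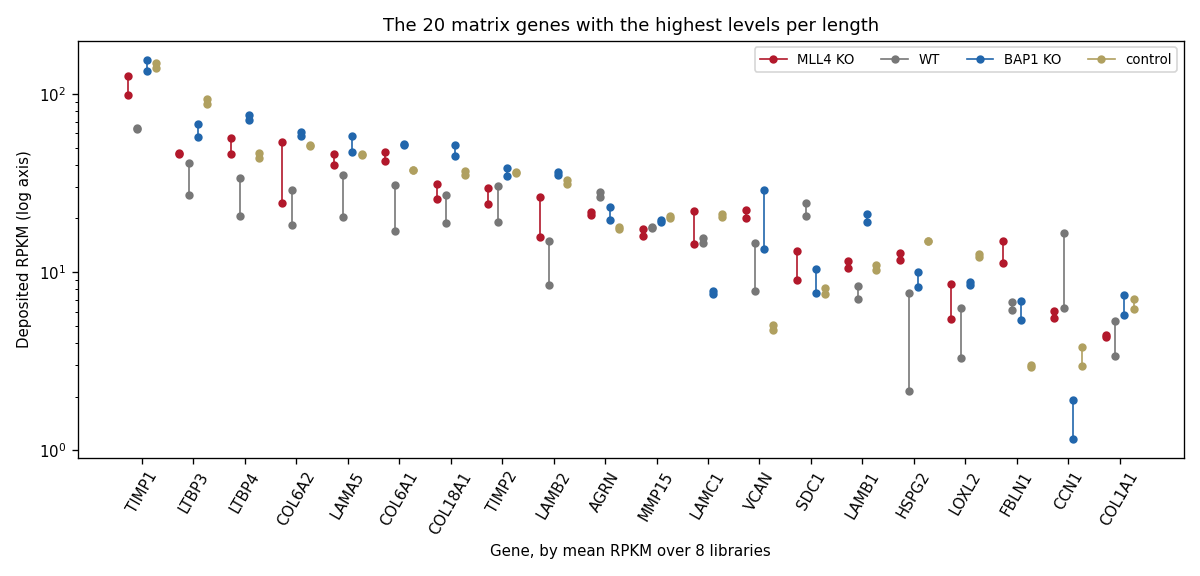
Deposited RPKM on a log axis of the 20 matrix genes with the highest mean, by gene from left to right, with 1 point per library, the 2 libraries of a group joined by a line and groups by colour. TIMP1 lies highest, and the lines of HSPG2 and CCN1 are long in WT.

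A group of 11 members was hardly expressed, with a mean under 1 CPM in every group. ADAMTS1, an aggrecan-cutting protease, had no read in any library, TGFBI had 1 read, EFEMP1 and the laminin chain LAMA1 had 2 reads each, NID1 had 8, COL4A2 10, FBN2 12 and COL4A1 20 reads over all 8 libraries. These 8 fell under the filter on low counts and were not tested. COL5A1 (51 reads), MMP7 (90 reads) and NID2 (136 reads) were also hardly expressed but passed the filter, which left 41 tested members. COL4A1 and COL4A2, the main type IV collagen chains of basement membranes, were thus nearly silent beside the laminin chains LAMA5, LAMB1, LAMB2 and LAMC1. The 2 chains of type I collagen were also unequal: COL1A1 averaged 32.4 ± 1.0 CPM in MLL4 KO, 32.1 ± 9.33 in WT, 49.1 ± 8.25 in BAP1 KO and 51.3 ± 4.23 in control (SD, n = 2), while COL1A2, no member, had no read outside WT replicate 2.

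**Figure D2:**
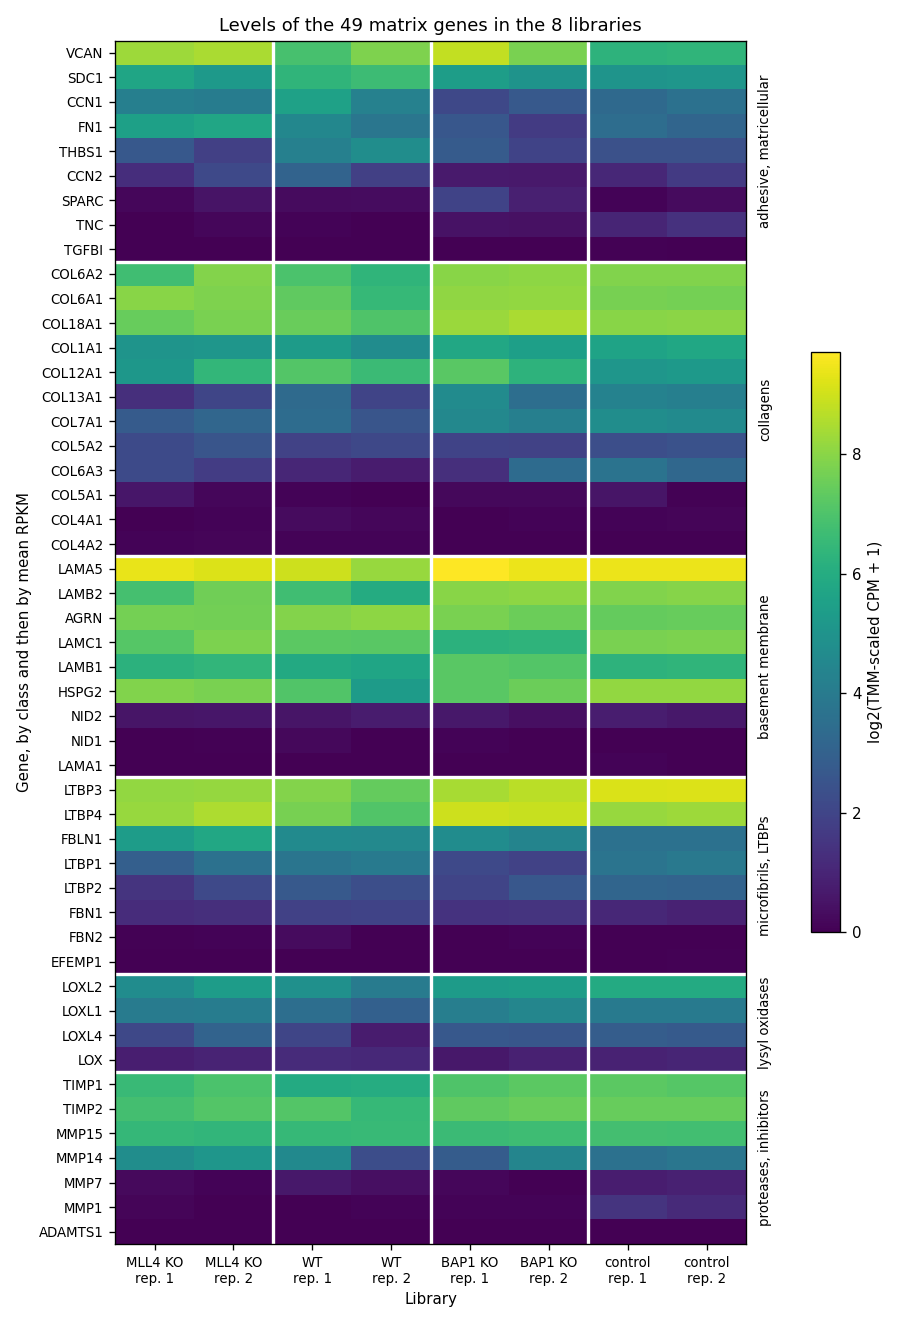
Levels of the 49 matrix genes as log2(TMM-scaled CPM + 1), genes in rows by class and then by mean RPKM, and the 8 libraries in columns (rep., replicate). The rows of the 11 hardly expressed genes are dark throughout, among them ADAMTS1 with no read in any library.

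Replicates of WT lay farther apart in these genes than those of any other group. Over the 32 members with at least 1 CPM in every group, the median fold between the 2 libraries was 1.27 in MLL4 KO, 1.51 in WT, 1.2 in BAP1 KO and 1.05 in control. In WT 17 of the 32 differed by more than 1.5-fold and 23 were lower in replicate 2, with MMP14, a membrane-anchored metalloproteinase, at 23.4 CPM in replicate 1 and 3.88 CPM in replicate 2, a 6.04-fold difference. HSPG2, which encodes perlecan, was at 135 and 39.2 CPM in these libraries. For many members a value of MLL4 KO against WT moves by over 1.5 times, or changes its call, when a WT library is left out, and such values are given with the results.

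MLL4 KO against WT asks which matrix genes differ in cells labelled as knocked out for MLL4. Fibronectin, laminin beta 1, fibulin 1, LTBP4, collagen VI alpha 1, LOXL1 and TIMP1 were higher in MLL4 KO, and thrombospondin 1, fibrillin 1 and syndecan 1 were lower. The 10 genes are 7 higher and 3 lower of 41 tested members by edgeR's quasi-likelihood test (Benjamini-Hochberg adjusted p under 0.05). Over all 16831 tested genes 19.1% passed, 9.13% higher and 10.0% lower. The members' share was 24.4%, and their median log2 fold change was 0.46 against 0.0 over all tested genes. In bulk RNA, fewer cells of a kind and less RNA per cell cannot be told apart. A fit on the 4 MLL4 KO and WT libraries alone called 0 of 36 tested members and 60 genes in all, with 14 at an unadjusted p under 0.05 and the smallest adjusted p, that of THBS1, at 0.0608. DESeq2 and limma-voom on all 8 libraries called 15 and 11 members. The count was 1 without MLL4 KO replicate 2 (THBS1), 6 without WT replicate 2, 19 without WT replicate 1, and 5 when either of control replicates 1 and 2 was left out.

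BAP1 KO against control asks the same of cells labelled as knocked out for BAP1. Laminin gamma 1, LTBP1, LTBP3, fibronectin, tenascin C and the metalloproteinase genes MMP1 and MMP7 were lower in BAP1 KO, and laminin beta 1, versican, SPARC, fibulin 1 and LTBP4 were higher. The 12 genes are 5 higher and 7 lower of 41 tested members, against 22.4% of all tested genes (12.1% higher, 10.4% lower). The members' share was 29.3% and their median log2 fold change was -0.06 against 0.01 over all tested genes. Of the 12, MMP1 passed the filter on low counts only through control and SPARC only through BAP1 KO, in each the group where it was high. Their calls are therefore not weighed like those of the better expressed members. All 12 were also among the 21 of 40 tested members called in a fit on the 4 BAP1 KO and control libraries. That fit added CCN1, CCN2, COL12A1, COL18A1, COL5A2, COL6A1, HSPG2, LOXL2 and LTBP2, and it called 6659 of 16020 genes in all. LAMB1, LAMC1, LTBP1 and MMP1 kept their call in each alternative in which they were tested (17 for MMP1, 18 for the others), and they were the 4 genes called without control replicate 1 and without control replicate 2. Without BAP1 KO replicate 1 the count was 7.

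Of the 41 tested members 4 were called in both comparisons, 18 in at least 1 and 23 in neither. Over all tested genes 19.1% were called in MLL4 KO and 22.4% in BAP1 KO. The share of all tested genes called in both is not given here, so this overlap is not read as particular to the members. LAMB1, FBLN1 and LTBP4 were higher in both knockouts, and FN1 was higher in MLL4 KO and lower in BAP1 KO. The difference between the effects, MLL4 KO against WT minus BAP1 KO against control, was itself called for 8 of 41 members (16.1% of all tested genes; 7.75% higher, 8.32% lower): FN1, LAMC1, LTBP1, LTBP3 and TIMP1 with a positive difference, and THBS1, FBN1 and SDC1 with a negative one. LAMC1 kept this call in all 17 alternatives, and was the gene called without control replicate 1, while FN1 and LAMC1 were those called without control replicate 2 and without BAP1 KO replicate 1. The count was 5 without MLL4 KO replicate 2 and 16 without WT replicate 1.

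**Figure D3:**
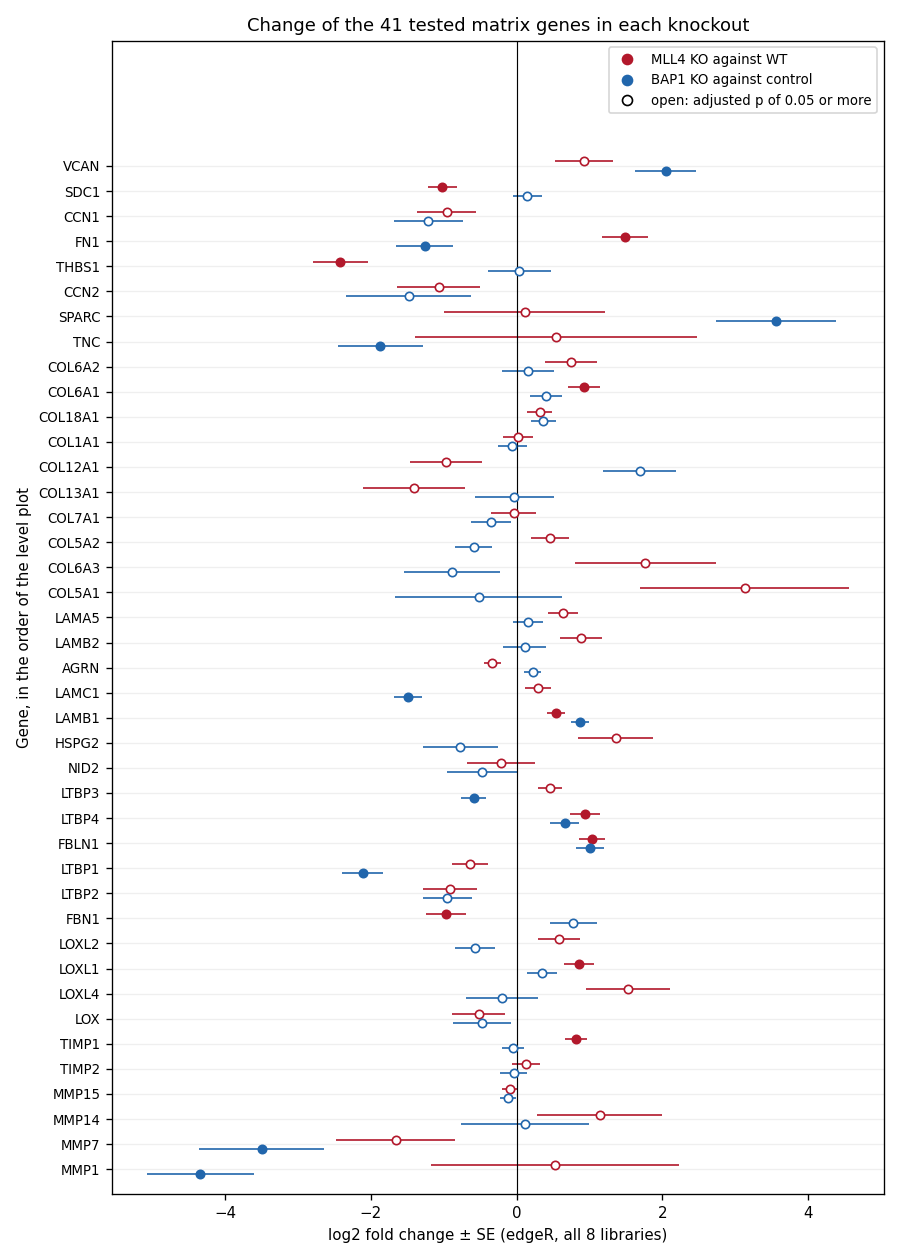
log2 fold change with its SE (bars) of the 41 tested matrix genes, in rows, in MLL4 KO against WT and in BAP1 KO against control, from 1 edgeR fit of all 8 libraries. Filled points passed an adjusted p of 0.05. LAMB1, FBLN1 and LTBP4 lie right of 0 in both comparisons, FN1 lies at 1.49 and -1.26, and MMP1 lies farthest left at -4.34.

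The promoters of the 3 genes called higher in both knockouts, with those of FN1, called in opposite directions, and LAMC1, the gene called in every alternative for the difference between the effects, are shown so that genes with like changes can be set side by side. Each is the 250 bases before the annotated start in RefSeq (GRCh38.p14), written 5′ to 3′ on the gene's strand. Capitals mark matches on either strand to the letters GGAATG (TEAD), TGANTCA (AP-1) and CAGAC (SMAD), where a match on the other strand reads as its reverse complement.
LAMB1 (chr7:108003162-108003411, minus strand): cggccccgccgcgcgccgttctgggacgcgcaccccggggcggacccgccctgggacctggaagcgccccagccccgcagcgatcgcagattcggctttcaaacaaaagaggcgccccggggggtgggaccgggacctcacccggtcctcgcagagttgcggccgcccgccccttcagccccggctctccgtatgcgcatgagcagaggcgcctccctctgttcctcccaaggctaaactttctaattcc
FBLN1 (chr22:45502633-45502882, plus strand): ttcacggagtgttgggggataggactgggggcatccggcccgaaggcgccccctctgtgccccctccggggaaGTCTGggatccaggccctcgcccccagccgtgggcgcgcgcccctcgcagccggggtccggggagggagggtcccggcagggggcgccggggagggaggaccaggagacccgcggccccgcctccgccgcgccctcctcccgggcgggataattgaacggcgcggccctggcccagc
LTBP4 (chr19:40592916-40593165, plus strand): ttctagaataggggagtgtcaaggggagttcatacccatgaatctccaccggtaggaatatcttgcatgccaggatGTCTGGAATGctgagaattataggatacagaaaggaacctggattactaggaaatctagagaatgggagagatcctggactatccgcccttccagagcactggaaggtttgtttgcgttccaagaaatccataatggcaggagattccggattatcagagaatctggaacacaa
FN1 (chr2:215436069-215436318, minus strand): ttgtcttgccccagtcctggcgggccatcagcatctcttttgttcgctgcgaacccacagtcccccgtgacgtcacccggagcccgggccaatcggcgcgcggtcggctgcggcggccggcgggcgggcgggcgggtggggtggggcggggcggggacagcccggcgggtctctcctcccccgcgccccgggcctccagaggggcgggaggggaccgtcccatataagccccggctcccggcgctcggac
LAMC1 (chr1:183023170-183023419, plus strand): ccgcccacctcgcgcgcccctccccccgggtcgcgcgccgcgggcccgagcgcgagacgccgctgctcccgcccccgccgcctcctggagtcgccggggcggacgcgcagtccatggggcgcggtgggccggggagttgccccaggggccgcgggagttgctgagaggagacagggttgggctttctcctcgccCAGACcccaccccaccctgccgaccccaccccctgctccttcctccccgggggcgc
FBLN1 holds the SMAD letters 177 bases before the start and LAMC1 56 bases before it. In LTBP4 the TEAD letters begin 170 bases before the start, and the SMAD letters on the other strand, 174 bases before it, overlap them by 1 base. LAMB1 and FN1 hold no match in this window. By base content LTBP4, at 45.2% G and C, stands apart from LAMB1 at 70.4%, FBLN1 at 77.6%, FN1 at 76.4% and LAMC1 at 79.6%. Promoters were found for 38 of the 49 members, with a median of 69.2% G and C against 58.0% over all 35116 promoters. The TEAD letters were in 6 of the 38 (15.8%) against 11.9% of all promoters, the SMAD letters in 16 (42.1%) against 38.0%, and the AP-1 letters in 1 (2.63%) against 6.57%. A match describes the letters and shows no binding.

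Among basement membrane genes the laminin chains moved apart in BAP1 KO. LAMC1 (chr1:183023420-183145592, hg38), the gamma chain found in most laminin trimers, had 74.8 and 78.6 CPM in BAP1 KO cells, against 212 and 219 CPM in control cells. It fell by 1.49 ± 0.19 on the log2 scale (SE, n = 2 against 2, edgeR adjusted p = 0.00081). In MLL4 KO it had 142 and 223 CPM, against 152 and 147 CPM in WT, and the groups overlapped (0.29 ± 0.18, adjusted p = 0.282). LAMB1 (chr7:107923799-108003161), a beta chain that pairs with LAMC1, had 150 and 138 CPM in BAP1 KO, against 76.7 and 80.5 CPM in control, a log2 fold change of 0.87 ± 0.12 (adjusted p = 0.0014). It had 74.6 and 83.0 CPM in MLL4 KO, against 57.7 and 50.7 CPM in WT, a change of 0.54 ± 0.12 (adjusted p = 0.0212). LAMB1 did not overlap between groups in either comparison, and its mean in MLL4 KO, 78.8 ± 5.91 CPM, was close to that in control, 78.6 ± 2.73 CPM (SD, n = 2). Without WT replicate 2 its MLL4 KO change was 0.45 ± 0.13 (adjusted p = 0.0833). In all, 1 of 7 tested basement membrane genes rose and none fell in MLL4 KO (14.3% called, median 0.54), against 19.1% of all tested genes. In BAP1 KO 1 rose and 1 fell (28.6%, median 0.11), against 22.4%.

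The other tested basement membrane genes passed in neither knockout. LAMA5, the alpha chain of adult epithelial laminins, had a log2 fold change of 0.64 ± 0.21 in MLL4 KO (adjusted p = 0.0645) and 0.16 ± 0.21 in BAP1 KO. LAMB2, the other beta chain, had 0.88 ± 0.29 (adjusted p = 0.0695) and 0.11 ± 0.29, and agrin (AGRN) had -0.33 ± 0.12 and 0.22 ± 0.12. In MLL4 KO, LAMA5 was 1.05 (adjusted p = 0.00297), LAMB2 1.31 (0.0179) and AGRN -0.4 (0.0406) without WT replicate 1, and they were 0.33, 0.54 and -0.26 without WT replicate 2, where none passed. HSPG2 had 230 and 214 CPM in MLL4 KO, against 135 and 39.2 CPM in WT, a change of 1.36 ± 0.52 that did not pass (adjusted p = 0.118), and -0.77 ± 0.51 in BAP1 KO (adjusted p = 0.337). Its call depended on the libraries in the fit: in MLL4 KO it passed at 2.5 ± 0.16 without WT replicate 1 (adjusted p = 0.000184) and at 0.72 ± 0.15 without WT replicate 2 (adjusted p = 0.0385), and in BAP1 KO at -0.78 ± 0.1 in the fit on 4 libraries (adjusted p = 0.00074). NID2, a linker of laminin and collagen, was at 0.321 to 0.705 CPM in every library.

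Of 10 tested collagen genes 1 rose in MLL4 KO (10.0% called, median log2 change 0.39), against 19.1% of all tested genes. In BAP1 KO none passed (median -0.05), against 22.4%. There the edgeR fit on 4 libraries called COL6A1, COL18A1, COL12A1 and COL5A2 (adjusted p = 0.0034, 0.0153, 0.0387 and 0.0497). That fit also called 6659 of all 16020 genes it tested, so these calls are not read as particular to collagens. COL6A1 (chr21:45981770-46005048), a chain of the beaded filaments of type VI collagen, had 248 and 225 CPM in MLL4 KO cells, against 159 and 90.7 CPM in WT cells, a log2 fold change of 0.93 ± 0.22 (SE, edgeR adjusted p = 0.0254). Both MLL4 KO libraries lay above both WT libraries, and without WT replicate 2 the change was 0.58 ± 0.12 (adjusted p = 0.0406), over 1.5 times smaller. In BAP1 KO it had 271 and 279 CPM, against 207 and 205 CPM in control (0.41 ± 0.22, adjusted p = 0.209). COL6A2, the partner chain, had 105.5 and 236 CPM in MLL4 KO, against 122 and 80.7 CPM in WT, and overlapped (0.75 ± 0.36; 0.49 without WT replicate 2). COL6A3, the third chain of the trimer, had 0.0677 ± 0.0231 RPKM in WT and 0.735 ± 0.162 RPKM in control, far under the 23.9 ± 9.76 and 37.5 ± 0.0875 RPKM of COL6A1. Its change in MLL4 KO was 1.77 ± 0.97 (adjusted p = 0.234), and its 5 isoform rows gave 0.6 to 1.67 in MLL4 KO, each an offset log2 ratio of mean CPM.

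COL12A1, which coats fibrillar collagen, had 149 and 76.1 CPM in BAP1 KO, against 33.5 and 36.1 CPM in control. Its log2 fold change of 1.69 ± 0.5 missed the threshold (adjusted p = 0.0591), although the libraries did not overlap, and it passed in 8 of 18 alternatives. In MLL4 KO it had 34.5 and 84.7 CPM, against 136 and 97.4 CPM in WT (-0.97 ± 0.49). COL13A1, a membrane-spanning collagen, had 1.48 and 3.13 CPM in MLL4 KO, against 9.15 and 3.0 CPM in WT, a change of -1.41 ± 0.7 (adjusted p = 0.194) with overlapping libraries; it was -0.42 without WT replicate 1. COL5A1, a chain of type V collagen, had 22 and 4 reads in MLL4 KO, against 2 and 0 reads in WT, and did not pass (adjusted p = 0.138). Of the other collagens COL18A1, the source of endostatin, COL1A1, COL5A2 and COL7A1, the anchoring fibril collagen, had log2 fold changes of -0.04 to 0.46 in MLL4 KO and of -0.59 to 0.37 in BAP1 KO, and none passed. In MLL4 KO these values moved with the WT libraries: without WT replicate 1 and without WT replicate 2 they were 0.57 and 0.1 for COL18A1, called only in the first of these fits, 0.35 and -0.25 for COL1A1, and 0.53 and -0.47 for COL7A1.

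Adhesive and matricellular genes, which bind cells to matrix or modulate that contact, were called in both directions. FN1 (chr2:215360865-215436068), fibronectin, had 44.2 and 52.5 CPM in MLL4 KO cells, against 21.7 and 12.9 CPM in WT cells, a log2 fold change of 1.49 ± 0.32 (SE, edgeR adjusted p = 0.0214). It had 5.2 and 2.24 CPM in BAP1 KO, against 10.1 and 8.03 CPM in control, and dropped by 1.26 ± 0.39 (adjusted p = 0.0491). Groups did not overlap in either comparison, and the difference between the effects was 2.75 ± 0.5 (adjusted p = 0.0109). The BAP1 KO call of FN1 was lost under 10 of 18 alternatives, with a log2 change of -2.0 without BAP1 KO replicate 1, -0.79 without BAP1 KO replicate 2, and adjusted p up to 0.219 without control replicate 1, while its MLL4 KO change was 1.16 ± 0.35 without WT replicate 2 (adjusted p = 0.103). Its 18 isoform rows gave 1.48 to 1.53 in MLL4 KO and -1.45 to -1.2 in BAP1 KO, a range within the SE of the gene's own value. Isoform rows appear to count many of the same reads, so their likeness is not separate evidence. FN1 shares bases with ATIC, which was at 59.2 to 135 CPM.

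THBS1 (chr15:39581079-39599466), thrombospondin 1, an activator of latent TGF-beta, had 5.39 and 2.59 CPM in MLL4 KO, against 17.6 and 25.9 CPM in WT. Its log2 change of -2.42 ± 0.38 (adjusted p = 0.0101) was the one call kept in all 17 other alternatives and lost in the fit on 4 libraries; without WT replicate 2 it was -2.1 ± 0.42 (adjusted p = 0.0427). In BAP1 KO it had 5.87 and 2.88 CPM, against 4.27 and 4.31 CPM in control, and the groups overlapped (0.04 ± 0.43, adjusted p = 0.959). SDC1 (chr2:20200797-20225475), a cell-surface heparan sulfate proteoglycan of epithelia, had 51.8 and 36.4 CPM in MLL4 KO, against 79.8 and 98.7 CPM in WT, and fell by 1.02 ± 0.2 (adjusted p = 0.0151). Without WT replicate 2 the change was -0.85 ± 0.23 (adjusted p = 0.0776). In BAP1 KO SDC1 had 41.2 and 30.8 CPM, against 31.3 and 33.4 CPM in control (0.15 ± 0.2).

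VCAN (chr5:83471744-83582302), the hyaluronan-binding proteoglycan versican, had 446 and 212 CPM in BAP1 KO, against 77.2 and 81.2 CPM in control, a log2 fold change of 2.05 ± 0.42 (adjusted p = 0.0153). It had 309 and 352 CPM in MLL4 KO, against 118 and 228 CPM in WT, which did not pass (0.93 ± 0.4, adjusted p = 0.148) although the libraries did not overlap; without WT replicate 1 it was 0.53, and without WT replicate 2 it was 1.48 (adjusted p = 0.124). SPARC (chr5:151661096-151686915), a collagen-binding matricellular protein, had 2.87 and 0.784 CPM in BAP1 KO, against 0.0783 and 0.205 CPM in control (3.56 ± 0.82, adjusted p = 0.0143). TNC (chr9:115019575-115118157), tenascin C, had 0.383 and 0.356 CPM in BAP1 KO, against 1.02 and 1.61 CPM in control, and fell by 1.87 ± 0.58 (adjusted p = 0.0378). SPARC and TNC were low in every library, and SPARC passed the filter on low counts only through BAP1 KO, where it was high. Their summed reads were 112 for SPARC in BAP1 KO against 10 in control, a ratio of 12.2 (95% exact interval 6.37 to 26.1), and 22 for TNC in BAP1 KO against 89 in control, a ratio of 0.268 (0.16 to 0.432). The intervals cover counting error only. They may be too narrow, since 45 of 55 member counts of 1 to 20 reads were even (57.3% over all genes). Paired mates counted as separate reads would give even counts, but this was not tested. SPARC lost its call without BAP1 KO replicate 1, at 2.32 (adjusted p = 0.125), and TNC in 8 of 17 alternatives.

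CCN1 and CCN2, matricellular genes known as targets of the YAP and TEAD factors, were not called. CCN1 had 17.1 and 15.9 CPM in MLL4 KO, against 46.3 and 18.3 CPM in WT (-0.96 ± 0.4, adjusted p = 0.131), while BAP1 KO had 3.32 and 5.56 CPM, against 8.93 and 11.3 CPM in control (-1.21 ± 0.47, adjusted p = 0.108). CCN2 had log2 fold changes of -1.07 ± 0.57 in MLL4 KO (adjusted p = 0.212) and -1.48 ± 0.86 in BAP1 KO (adjusted p = 0.258). The MLL4 KO values turned on WT replicate 1: without it CCN1 was -0.15 and CCN2 -0.12, and without WT replicate 2 CCN1 passed at -1.48 ± 0.23 (adjusted p = 0.0203) and CCN2 was -1.69 ± 0.46 (adjusted p = 0.0811). CCN1 in MLL4 KO was also called by DESeq2. In both genes the BAP1 KO libraries lay under the control libraries, and 4 of 18 alternatives called CCN1 and 1 called CCN2 there. Of the 8 tested genes of this class, 1 rose and 2 fell in MLL4 KO (37.5% called, median -0.43), against 19.1% of all tested genes. In BAP1 KO 2 rose and 2 fell (50.0%, median -0.58), against 22.4%.

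Of 6 tested microfibril, fibulin and LTBP genes 3 were called in MLL4 KO (2 higher, 1 lower, median -0.09), against 19.1% of all tested genes, and 4 in BAP1 KO (2 higher, 2 lower, median 0.03), against 22.4%. FBLN1 (chr22:45502883-45601135), fibulin 1, a component of basement membranes and elastic fibres, had 40.7 and 55.2 CPM in MLL4 KO, against 24.1 and 22.6 CPM in WT, a log2 fold change of 1.04 ± 0.18 (SE, edgeR adjusted p = 0.0107), and 0.99 ± 0.22 without WT replicate 2 (adjusted p = 0.0476). It had 25.2 and 20.0 CPM in BAP1 KO, against 11.2 and 11.3 CPM in control, a change of 1.01 ± 0.19 (adjusted p = 0.0056). Neither pair of groups overlapped, and the difference between the effects was 0.03 ± 0.26 (adjusted p = 0.945), which does not show that they are equal. LTBP4 (chr19:40593166-40629820), which binds latent TGF-beta and elastic fibres, had 294 and 368 CPM in MLL4 KO, against 212 and 134 CPM in WT (0.94 ± 0.2, adjusted p = 0.0187). It had 494 and 468 CPM in BAP1 KO, against 297 and 313 CPM in control (0.66 ± 0.2, adjusted p = 0.043). Its groups did not overlap, but the BAP1 KO call was lost in 8 of 18 alternatives, and without WT replicate 2 the MLL4 KO change was 0.64 ± 0.16 (adjusted p = 0.0571).

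LTBP1 (chr2:32946953-33399509), the founding member of that family, had 3.41 and 2.74 CPM in BAP1 KO cells, against 12.2 and 14.4 CPM in control cells. Its log2 fold change was -2.11 ± 0.28 (adjusted p = 0.0012). Its 5 isoform rows, which appear to count many of the same reads and are not independent, gave -2.15 to -2.09. In MLL4 KO it had 6.69 and 11.1 CPM, against 12.6 and 14.9 CPM in WT (-0.64 ± 0.25, adjusted p = 0.098). LTBP3 (chr11:65538559-65558359), the LTBP gene with the highest mean RPKM, had 347 and 417 CPM in BAP1 KO, against 562 and 587 CPM in control, and fell by 0.59 ± 0.17 (adjusted p = 0.0366). It had 276 and 286 CPM in MLL4 KO, against 242 and 167 CPM in WT (0.46 ± 0.17, adjusted p = 0.0898), with 0.75 without WT replicate 1 (adjusted p = 0.00682) and 0.22 without WT replicate 2. LTBP2 passed in neither, with -0.91 ± 0.37 in MLL4 KO and -0.95 ± 0.34 in BAP1 KO (adjusted p = 0.108 and 0.0713). Within 1 gene family BAP1 KO thus held LTBP4 higher and LTBP1 and LTBP3 lower in the fit of all 8 libraries. Of 18 alternatives the BAP1 KO call of LTBP3 was lost in 5 and that of LTBP4 in 8, while LTBP1 kept its call in all 18. FBN1 (chr15:48408313-48645709), fibrillin 1, was low, with 1.37 and 1.51 CPM in MLL4 KO, against 2.71 and 2.88 CPM in WT, and fell by 0.97 ± 0.27 (adjusted p = 0.0351), a call lost in 11 of 18 alternatives, at adjusted p = 0.133 without WT replicate 2. In BAP1 KO it had 1.66 and 1.78 CPM, against 1.1 and 0.923 CPM in control (0.78 ± 0.32, adjusted p = 0.105).

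Of the 4 tested lysyl oxidase genes 1 rose and none fell in MLL4 KO (median 0.72), against 19.1% of all tested genes called. None passed in BAP1 KO (median -0.33), against 22.4%. LOXL1 (chr15:73926462-73952136), which acts on elastic fibres, had 15.3 and 16.0 CPM in MLL4 KO, against 10.4 and 6.91 CPM in WT, a log2 fold change of 0.86 ± 0.21 (edgeR adjusted p = 0.0269). The groups did not overlap, and without WT replicate 2 the change was 0.58 ± 0.2 (adjusted p = 0.126). Reads of LOXL1-AS1, an overlapping antisense gene at 4.72 to 13.6 CPM, cannot be told apart from those of LOXL1 without strand. LOXL4 had 3.25 and 7.41 CPM in MLL4 KO, against 3.1 and 0.688 CPM in WT (1.53 ± 0.58, adjusted p = 0.1). It passed in 3 of 18 alternatives, at 2.92 ± 0.63 without WT replicate 1 (adjusted p = 0.0118), and was 0.75 ± 0.49 without WT replicate 2. LOXL2 had 0.58 ± 0.29 in MLL4 KO (1.07 without WT replicate 1, adjusted p = 0.0179, and 0.2 without WT replicate 2) and -0.57 ± 0.28 in BAP1 KO on the log2 scale, and LOX, the founding enzyme, had -0.52 ± 0.36 and -0.47 ± 0.4, at 0.542 to 1.28 CPM in every library.

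Among proteases and inhibitors TIMP1 rose in MLL4 KO and MMP1 and MMP7 fell in BAP1 KO, of 6 tested (medians 0.33 and -0.08). The share called was 16.7% in MLL4 KO, against 19.1% of all tested genes, and 33.3% in BAP1 KO, against 22.4%. TIMP1 (chrX:47582436-47586789) had 94.4 and 122 CPM in MLL4 KO cells, against 59.7 and 62.7 CPM in WT cells, a log2 fold change of 0.82 ± 0.15 (SE, edgeR adjusted p = 0.0118). Without WT replicate 2 it was 0.86 ± 0.18 (adjusted p = 0.0405), and without MLL4 KO replicate 2 the adjusted p was 0.0596. In BAP1 KO it had 130 and 152 CPM, against 152 and 140 CPM in control (-0.05 ± 0.15, adjusted p = 0.844), and the difference between the effects was 0.87 ± 0.21 (adjusted p = 0.0233). TIMP1 lies within SYN1, which was at 0.188 to 3.25 CPM. TIMP2, the other inhibitor, had log2 fold changes of 0.13 ± 0.19 in MLL4 KO (0.47 without WT replicate 1, -0.14 without WT replicate 2) and -0.04 ± 0.19 in BAP1 KO.

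MMP1 (chr11:102789919-102798160), interstitial collagenase, was detected mainly in control and passed the filter on low counts only through that group. It had 0.0638 and 0.0712 CPM in BAP1 KO, against 1.76 and 1.21 CPM in control, from 4 reads in BAP1 KO and 92 reads in control, a ratio of 0.0472 (95% exact interval 0.0126 to 0.125). By edgeR its log2 fold change was -4.34 ± 0.73 (adjusted p = 0.0014). MLL4 KO had 4 and 0 reads and WT 0 and 2, too few for a fold. MMP7 (chr11:102520508-102530747), matrilysin, a protease of epithelial cells, had 0.128 and 0 CPM in BAP1 KO, against 0.705 and 0.872 CPM in control, from 4 and 52 reads (ratio 0.0835, 0.0219 to 0.227). It fell by 3.5 ± 0.86 (adjusted p = 0.0161), a call lost without control replicate 1, control replicate 2 or BAP1 KO replicate 2; without BAP1 KO replicate 1, when no read is left in BAP1 KO, it was -7.71. In MLL4 KO it had 10 reads, against 24 in WT (-1.66 ± 0.82, adjusted p = 0.171). The membrane-type metalloproteinase genes did not pass: MMP14 had 25.9 and 33.3 CPM in MLL4 KO, against 23.4 and 3.88 CPM in WT (1.14 ± 0.86, adjusted p = 0.386; 2.93 ± 0.8 without WT replicate 1, adjusted p = 0.0456, and 0.34 ± 0.65 without WT replicate 2), and 6.0 and 20.4 CPM in BAP1 KO, against 11.2 and 12.9 CPM in control. MMP15 lay at 82.0 to 109.9 CPM in all libraries and passed in neither comparison.

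**Figure D4:**
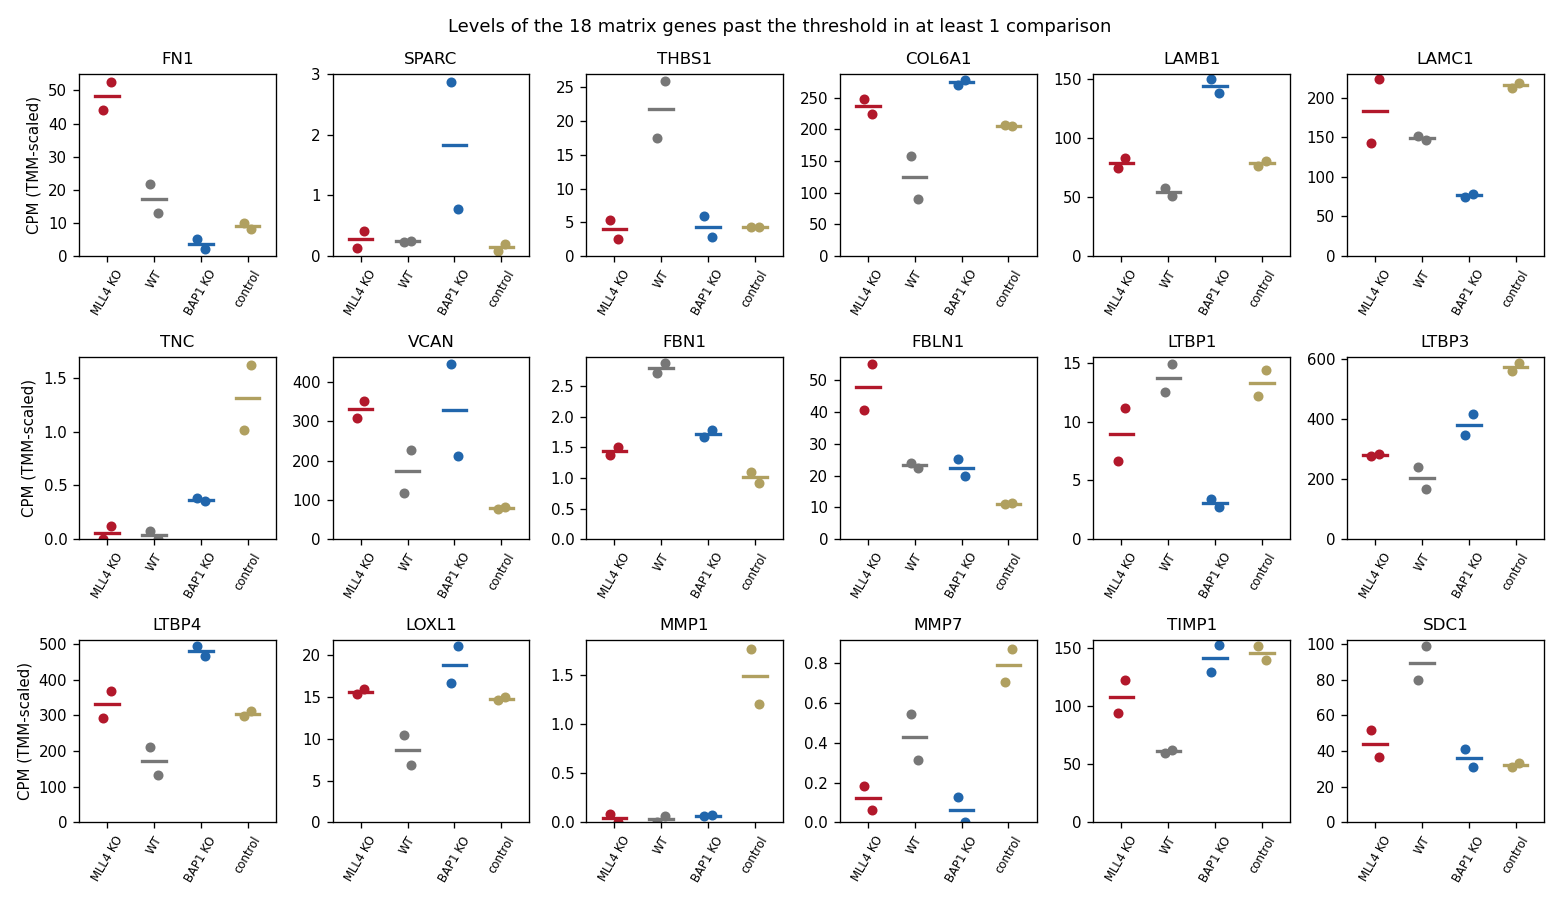
TMM-scaled CPM of the 18 matrix genes called in at least 1 of the comparisons, 1 panel per gene with its own axis from 0, with points for the 2 libraries of each group and a bar at their mean. LAMB1, FBLN1 and LTBP4 lie higher in each knockout than in its own unedited group, and SPARC, TNC, MMP1 and MMP7 lie under 3 CPM throughout.

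Control and WT, both without either knockout, also differed in these genes, and more members were called between them than in either knockout. Of 41 tested members 27 were called in control against WT, 20 higher and 7 lower, against 39.6% of all tested genes (19.9% higher, 19.7% lower), with a median of 0.68 against 0.02. The count was 12 without control replicate 1 and 10 without control replicate 2. Line, handling and experiment cannot be told apart, and this comparison shares its libraries with the knockout comparisons. Side by side, TIMP1 was 1.25 ± 0.15 in control against WT and 0.82 ± 0.15 in MLL4 KO against WT, LAMB1 0.54 ± 0.12 and 0.54 ± 0.12, LTBP4 0.82 ± 0.2 (0.53 without WT replicate 2) and 0.94 ± 0.2, THBS1 -2.34 ± 0.39 and -2.42 ± 0.38, and SDC1 -1.46 ± 0.2 and -1.02 ± 0.2. In the same order COL6A1 was 0.73 ± 0.22 (0.38 to 1.19 with 1 library left out) and 0.93 ± 0.22. LOXL1 was 0.78 ± 0.22 (0.5 to 1.1) and 0.86 ± 0.21, and FBN1 -1.49 ± 0.29 and -0.97 ± 0.27. Of the members called in MLL4 KO only FBLN1 and FN1 had the opposite sign. They were at -1.05 ± 0.19 and -0.93 ± 0.34 in control against WT (edgeR adjusted p = 0.00234 and 0.0603), beside 1.04 ± 0.18 and 1.49 ± 0.32 in MLL4 KO against WT. LTBP3 had 562 and 587 CPM in control, against 242 and 167 CPM in WT (1.49 ± 0.18, adjusted p = 0.0003). TNC had 89 reads in control and 2 in WT, and MMP1 92 reads in control and 2 in WT.

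Receptors and enzymes that act on the matrix were counted from lists of genes outside the 49, and each share called is to be read against 19.1% of all tested genes in MLL4 KO and 22.4% in BAP1 KO. Of 24 tested matrix receptor genes 7 rose and 1 fell in MLL4 KO (33.3% called, median log2 change 0.4), and 8 rose and 6 fell in BAP1 KO (58.3%, 0.24). ITGB4, the beta chain of the laminin receptor of hemidesmosomes, had 2207 and 2230 CPM in MLL4 KO, against 470 and 357 CPM in WT (2.42 ± 0.15, edgeR adjusted p = 0.00055). ITGA2, a chain of a collagen receptor, rose in MLL4 KO by 1.32 ± 0.16 (adjusted p = 0.00353) and in BAP1 KO by 1.06 ± 0.15 (adjusted p = 0.00166), as did ITGA9, by 1.8 ± 0.32 and 3.39 ± 0.43 (adjusted p = 0.0116 and 0.00085). ITGA3, a laminin receptor chain, rose by 1.36 ± 0.21 in MLL4 KO (adjusted p = 0.00865). The unedited groups also lay apart. Mean CPM in control and WT was 2187 and 366 for ITGA3, 1154 and 414 for ITGB4, and 105 and 50.1 for ITGA2. ITGA9 went the other way, at 0.406 CPM in control and 1.77 CPM in WT. Of the 24 receptor genes 12 were higher and 3 lower in control against WT (62.5%, against 39.6% of all tested genes). ITGA10, another collagen receptor chain, had 19.6 and 13.0 CPM in BAP1 KO, against 1.92 and 1.39 CPM in control (3.33 ± 0.29, adjusted p = 0.00014), and DDR2, a collagen receptor kinase, fell there by 1.58 ± 0.27 (adjusted p = 0.00349).

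Of 27 tested genes of collagen biosynthesis 4 rose and none fell in MLL4 KO (14.8%, median 0.13), and 2 rose and 7 fell in BAP1 KO (33.3%, -0.2). Those that rose in MLL4 KO were P4HA3, FKBP10, P4HB and ADAMTS2. PLOD2, which hydroxylates collagen lysines, had 10.1 and 14.1 CPM in BAP1 KO, against 31.3 and 36.0 CPM in control, and fell by 1.48 ± 0.23 (adjusted p = 0.00246). PLOD3 fell by 0.68 ± 0.11 (adjusted p = 0.00296) and the prolyl isomerase gene PPIB by 0.65 ± 0.14 (adjusted p = 0.0102), while ADAMTS2, which trims procollagen, rose by 2.11 ± 0.58 (adjusted p = 0.033). Of 17 other tested collagens 2 rose in MLL4 KO (11.8%), COL4A5 at 0.85 ± 0.18 and COL4A3 at 1.19 ± 0.3 (adjusted p = 0.0187 and 0.0299). In BAP1 KO 2 rose and 1 fell (17.6%): COL9A3 and COL27A1 rose, and COL17A1, the hemidesmosomal collagen, had 0.287 and 0.356 CPM, against 3.68 and 3.0 CPM in control, and fell by 3.35 ± 0.47 (adjusted p = 0.00149). COL4A5 was at 40.7 ± 10.9 CPM in MLL4 KO and 22.7 ± 0.757 CPM in WT (SD, n = 2), where COL4A1 and COL4A2 had next to no reads.

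Of 22 other tested metalloproteinase and inhibitor genes 6 rose and 1 fell in MLL4 KO (31.8%, median 0.59), and 2 rose and 3 fell in BAP1 KO (22.7%, 0.25). TIMP3, a matrix-bound inhibitor, rose by 1.99 ± 0.25 in MLL4 KO (adjusted p = 0.00479) and MMP28 by 2.84 ± 0.42 (adjusted p = 0.00783). ADAMTS16 had 0 and 0.107 CPM in BAP1 KO, against 3.88 and 3.72 CPM in control, and fell (adjusted p = 0.00049). Of 31 other tested glycoproteins and proteoglycans 6 rose and 1 fell in MLL4 KO (22.6%, median 0.71), and 3 rose and 2 fell in BAP1 KO (16.1%, 0.15). MATN2, a matrilin, rose in both knockouts, with 16.6 and 16.2 CPM in MLL4 KO, against 4.81 and 3.78 CPM in WT, while BAP1 KO had 22.1 and 16.6 CPM, against 5.44 and 6.05 CPM in control (1.94 ± 0.21 and 1.75 ± 0.2, adjusted p = 0.00318 and 0.00058).

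Of 11 tested TGF-beta ligands and receptors none passed in MLL4 KO (median 0.17), and 1 rose and 1 fell in BAP1 KO (18.2%, 0.29). TGFBR2, the type II receptor, had 11.9 and 9.79 CPM in BAP1 KO, against 38.2 and 37.9 CPM in control, and fell by 1.81 ± 0.29 (adjusted p = 0.00338), while TGFB1 rose by 0.52 ± 0.12 (adjusted p = 0.016). Of 21 tested YAP/TEAD targets other than CCN1 and CCN2, 3 rose and 3 fell in MLL4 KO (28.6%, median 0.24) and 5 rose and 5 fell in BAP1 KO (47.6%, -0.05). F3, tissue factor, was called in opposite directions, like FN1, at 1.11 ± 0.12 in MLL4 KO (adjusted p = 0.00318) and -0.93 ± 0.13 in BAP1 KO (adjusted p = 0.0012).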

How the data were processed

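RNA-seq tables of 8 libraries were used. The read counts per transcript were deposited by the authors, with RPKM beside them, per the file headers. Per the submitters' processing notes, bcl2fastq, Bowtie2, STAR, SICER 1.1 and hg38 were used, with no roles given; no source used here names the counting tool, strand setting or annotation. Tables held 88819 rows. RefSeq ids were matched to symbols, and 605 rows without one (0.23% to 0.252% of counts) were left out. Each gene kept its row with the highest mean count. The counts were tested with edgeR 4.0.16 (R 4.3.3): TMM scaling, filterByExpr, a robust quasi-likelihood fit with 1 mean per group over all 8 libraries, and Benjamini-Hochberg adjustment over 16831 genes (threshold 0.05, two-sided). The SE is the log2 fold change over the root of F. RPKM were used only for levels between genes, and under 1 CPM in all groups counted as hardly expressed. The steps were tested on simulated data with the same spread per gene in every group. The real groups were unequal in spread, so that test does not vouch for the calls. Coordinates and promoters are from RefSeq (GRCh38.p14).

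Members past the threshold in either knockout are named with the value of each library of the comparison that called them. Others named are the 10 highest by RPKM, those with an unpassed change of at least 2-fold, and hardly expressed ones, besides examples for each class. From each list outside the 49, at most 4 genes per knockout were taken, those past the threshold with the smallest p and at least 1 CPM in the higher group. The members and lists were chosen with earlier results of these data known. Other settings tried were DESeq2 1.42.0, voom weights in limma 3.58.1, scaling by RLE or by the upper quartile, no filter, a minimum of 1 CPM in 4 libraries, the 4 libraries of a comparison alone, a replicate block, summed or longest transcript rows, and leaving out each library.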

Additional observations from a re-analysis of the deposited data

Results flagged for a closer look

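For 8 members the effect of MLL4 KO against WT differed from that of BAP1 KO against control, by edgeR's test of the difference itself on the log2 scale. The difference, MLL4 effect minus BAP1 effect, was 2.75 ± 0.5 for FN1 (adjusted p = 0.0109), 1.78 ± 0.26 for LAMC1 (0.00337), 1.47 ± 0.38 for LTBP1 (0.0301), 1.05 ± 0.24 for LTBP3 (0.0209) and 0.87 ± 0.21 for TIMP1 (0.0233). It was -2.46 ± 0.57 for THBS1 (0.0236), -1.75 ± 0.41 for FBN1 (0.0216) and -1.17 ± 0.28 for SDC1 (0.0248). FN1 was the one of these called in both knockouts, in opposite directions. THBS1, FBN1, TIMP1 and SDC1 were called in MLL4 KO and LAMC1, LTBP1 and LTBP3 in BAP1 KO. Control against WT was itself called in 6 of the 8, all but FN1 and LTBP1. FN1 missed the threshold there, at -0.93 ± 0.34 (edgeR adjusted p = 0.0603) with libraries that did not overlap, and LTBP1 was -0.05 ± 0.24. LAMC1 lost its call there in 8 of 18 alternatives. Experiment and line cannot be told apart from the knockout in the difference between the effects.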

How the results depend on the processing

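Of the members called in MLL4 KO, in BAP1 KO or for the difference, none changed sign in that comparison under any alternative run. Among members not called in MLL4 KO, TIMP2, COL1A1, COL7A1, NID2, TNC and MMP1, all near 0 or with few reads, changed sign without 1 of the WT libraries. In MLL4 KO against WT, 10 members and 3219 genes passed; the 4 libraries alone gave 0 and 60, and leaving out 1 library 1 to 19 and 492 to 5300. In BAP1 KO against control, 12 members and 3778 genes passed; the 4 libraries alone gave 21 and 6659, and leaving out 1 library 4 to 15 and 1090 to 5024. The difference between the effects, 8 members, was 13 with DESeq2 and 1 to 16 without 1 library, and has no fit on 4 libraries. Control against WT, 27 members, gave 10 to 28 without 1 library. A group left with 1 library was assumed to vary like the others. With a replicate block the counts were 5 members and 792 genes for MLL4 KO, 9 members and 2481 genes for BAP1 KO, 4 members for the difference and, in control against WT, 9. The same-numbered libraries share only a number: their deviations correlated at -0.143 in MLL4 KO and WT and at 0.006 in BAP1 KO and control. Crossing the MLL4 KO numbers, chosen after seeing the data, gave 17 members and 3976 genes for MLL4 KO, 17 and 4204 for BAP1 KO, 12 members for the difference and, in control against WT, 19. Upper-quartile scaling moved the split in MLL4 KO to 1886 higher and 1211 lower, against 1536 and 1683, and the median of all genes to 0.088. The members' split in BAP1 KO, 5 higher and 7 lower, was 6 and 5 with limma-voom and 5 and 4 without BAP1 KO replicate 2. A minimum of 1 CPM in 4 libraries left 8 members called in BAP1 KO; SPARC, TNC, MMP1 and MMP7 were then no longer tested, LTBP4 was lost and COL12A1 gained. The cause of the other changes was not tested. Members with few reads, such as MMP1 and SPARC, are limited by counting error.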
